A study of Mus musculus with 4 samples.

Results

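The genes described here make cholesterol, sense it, take it up, store it or export it. They were taken from a list of gene symbols, and all 31 symbols are found among the 21883 features listed for each tissue. Of the 31, 18 encode enzymes of the synthesis route, 7 encode its regulators or the LXR sterol receptors, and 6 act in uptake, transport, esterification or efflux. The samples are 4 RNA sequencing libraries from wild type, young adult male mice (strain label BL6/C57) in which the sciatic and femoral nerves of the left leg were transected 7 days before RNA was purified. The 4 groups, with 1 library each, are ipsilateral (cut side) and contralateral dorsal root ganglia (DRG) of lumbar levels 4 to 6, and dorsal lumbar cord of each side. All 4 come from operated animals, so the contralateral libraries are an internal reference and not uninjured tissue. The sources used here do not say how many animals each library holds.

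Cells build cholesterol from acetyl-CoA through mevalonate, farnesyl diphosphate, squalene and lanosterol. When membrane sterol is low, SCAP carries the SREBP transcription factors out of the endoplasmic reticulum and they switch on the genes of this route, while the INSIG proteins hold SCAP back when sterol is plentiful. When oxysterols accumulate, the LXR receptors switch on export genes such as Abca1. In the nervous system cholesterol does not cross the blood barrier in quantity, so it is made locally, in largest amounts by the glia that form myelin, and phagocytes that take up membrane debris load and export it.

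Levels are given in FPKM (fragments scaled to transcript length and to the mapped fragments of the library). The log2 ratio is log2 of (ipsilateral FPKM + 1) over (contralateral FPKM + 1), and genes that reached 1 FPKM on either side of a tissue are treated as measured there. Log2 ratios of 1 and above, or -1 and below, are termed 2-fold. No group has a second library, so all ratios describe these libraries without a replicate check, and in whole tissue fewer cells of a type cannot be told apart from less RNA per cell. Measured features numbered 13137 in DRG and 13351 in cord, with a median log2 ratio of 0.05 and 0.02. The sensory neuron gene Avil stood at 270 FPKM ipsilaterally and 272 contralaterally in DRG and at no more than 0.08 in cord, while the dorsal horn gene Pax2 was at 5.01 and 3.29 FPKM in cord and listed at 0 in DRG. Of the 5 dorsal horn markers, 5 were measured in cord and 1 in DRG, the glutamate transporter gene Slc17a6 at 95.6 FPKM ipsilaterally and 85.7 contralaterally.

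Of the 31 genes, 30 were measured in each tissue. The exception was Hmgcs1, HMG-CoA synthase, listed at 0 FPKM in all 4 libraries. Its only entry lies on an unlocalised fragment of chromosome 13, and 75 of the 84 features on such fragments were listed at 0 on both sides in DRG and 77 in cord, so its 0 gives no level for the gene. Another 4 members, Fdft1, Tm7sf2, Srebf1 and Srebf2, share their listed locus with another feature. The Srebf1 locus also holds Rai1.

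The starts of the synthesis genes had a sequence feature in common. RefSeq promoters (build GRCm38.p6, matched by symbol, with Sc4mol under its newer name Msmo1) were found for 26 of the 31 genes, and the 250 bases before each start were searched on both strands. The letters CCAAT were present for 14 of 15 synthesis genes with a promoter, the exception being Acat2, against 37.5% of all 27025 genes in the table and 39.5% of its protein-coding genes. They were present for 4 of 7 regulators and receptors and for 1 of 4 transport genes, Soat1. The sterol regulatory element letters TCACNCCAC were found for 1 of the 26 genes, Hmgcs1, against 1.22% of all genes. These matches describe letters in a window and no binding.

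The 6 promoters shown, chosen after the values were seen, belong to the enzymes that stood farthest from an even level in either tissue and to the efflux gene Abca1. Each is the 250 bases before the gene's start, 5′ to 3′ on the gene's strand, with CCAAT or its reverse complement in capitals. Hsd17b7 holds 3 matches, Nsdhl and Mvd 2 each, Lss and Sc5d 1 each and Abca1 0. In GRCm38.p6 they lie at chr1:169969206-169969455 (minus strand), chrX:72918271-72918520 (plus), chr8:122443423-122443672 (minus), chr10:76531355-76531604 (plus), chr9:42264301-42264550 (minus) and chr4:53159896-53160145 (minus).
Hsd17b7: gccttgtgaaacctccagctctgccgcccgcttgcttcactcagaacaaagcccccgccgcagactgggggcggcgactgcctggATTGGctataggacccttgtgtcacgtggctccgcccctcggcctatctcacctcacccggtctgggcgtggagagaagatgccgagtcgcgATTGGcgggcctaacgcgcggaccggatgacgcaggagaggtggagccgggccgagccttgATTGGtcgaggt
Nsdhl: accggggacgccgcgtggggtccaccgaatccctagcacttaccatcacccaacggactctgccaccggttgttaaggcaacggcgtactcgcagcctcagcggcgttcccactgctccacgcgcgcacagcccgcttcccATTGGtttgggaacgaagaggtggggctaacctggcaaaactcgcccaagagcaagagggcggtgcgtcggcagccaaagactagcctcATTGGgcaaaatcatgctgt
Mvd: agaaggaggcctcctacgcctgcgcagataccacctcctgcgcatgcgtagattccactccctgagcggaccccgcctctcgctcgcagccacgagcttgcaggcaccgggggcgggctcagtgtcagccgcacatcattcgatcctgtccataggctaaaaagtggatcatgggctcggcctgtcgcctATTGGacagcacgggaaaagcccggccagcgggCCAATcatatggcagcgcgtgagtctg
Lss: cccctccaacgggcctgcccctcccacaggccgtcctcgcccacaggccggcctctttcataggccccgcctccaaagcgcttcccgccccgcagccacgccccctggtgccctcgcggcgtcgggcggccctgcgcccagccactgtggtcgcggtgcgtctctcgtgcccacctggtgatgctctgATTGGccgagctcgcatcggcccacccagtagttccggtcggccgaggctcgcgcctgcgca
Sc5d: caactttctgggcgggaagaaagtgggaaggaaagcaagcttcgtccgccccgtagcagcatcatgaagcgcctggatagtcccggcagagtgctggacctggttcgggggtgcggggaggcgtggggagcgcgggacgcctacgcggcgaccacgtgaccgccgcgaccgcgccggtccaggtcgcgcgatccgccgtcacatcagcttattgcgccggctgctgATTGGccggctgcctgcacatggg
Abca1: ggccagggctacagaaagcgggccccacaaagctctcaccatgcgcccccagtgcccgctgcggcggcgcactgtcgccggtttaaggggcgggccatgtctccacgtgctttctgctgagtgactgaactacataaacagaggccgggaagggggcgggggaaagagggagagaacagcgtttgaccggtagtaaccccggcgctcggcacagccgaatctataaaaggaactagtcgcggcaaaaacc

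In ipsilateral DRG the synthesis route stood close to its contralateral level, apart from a late enzyme. Hsd17b7, the ketosteroid reductase that acts while methyl groups are removed from the sterol ring, was nearly 2-fold higher. Of the 17 measured enzymes, 8 had a log2 ratio above 0 and 9 below, with a median of -0.01, against 56.1% above 0 and a median of 0.05 over all measured features. Their summed level was 952 FPKM ipsilaterally and 940 contralaterally. The count above 0 was 7 of 17 after median or upper-quartile rescaling.

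The early enzymes, which make and activate mevalonate, were even between the sides in DRG. Acat2, the thiolase that joins the first acetyl-CoA units, stood at 60.3 FPKM ipsilaterally and 57.4 contralaterally (log2 ratio 0.07). Mvk, mevalonate kinase, was at 24.8 against 25.1 FPKM (-0.01). Pmvk, the next kinase, was at 55.8 against 65.9 FPKM (-0.23). Mvd, the decarboxylase that yields the first isoprene unit, was at 17.3 against 18.4 FPKM (-0.08), and Idi1, which isomerises that unit, at 71.0 against 67.4 (0.07).

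The enzymes that make squalene and its epoxide were among the most abundant members in DRG, while the ring-closing enzyme Lss was not. Fdps, farnesyl diphosphate synthase, was at 84.9 against 92.5 FPKM (log2 ratio -0.12). Fdft1, squalene synthase, was at 140 against 147 FPKM (-0.07), a contralateral level above that of 96.6% of measured features. Sqle, squalene epoxidase, was at 84.9 against 79.6 FPKM (0.09). Lss, which cyclises the epoxide to lanosterol, was at 11.8 against 14.1 FPKM (-0.23), the lowest level of the 17 enzymes.

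Among the enzymes that turn lanosterol into cholesterol, Hsd17b7 had the largest ratio in DRG and was the only one called in the authors' deposited table. Hsd17b7 stood at 40.7 FPKM ipsilaterally and 21.0 contralaterally (log2 ratio 0.92). The fold was 1.94, with a 95% interval of 1.36 to 2.75 from the standard error that the authors' deposited table implies, and q = 0.00736 there. Such an interval covers the counting and dispersion terms of the authors' model and leaves out variation between animals. Hsd17b7 lies on mm9 chromosome 1 from 171879667 to 171899336.

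Ebp, the sterol isomerase, was at 34.2 against 23.5 FPKM in DRG (log2 ratio 0.52), and its fold of 1.46 ran from 0.999 to 2.12 by the authors' deposited table (q = 0.300). Sc4mol, the methylsterol oxidase, was at 118 against 129 FPKM (-0.13), and Nsdhl, the dehydrogenase that removes the oxidised carbon, at 33.8 against 29.4 (0.20). These work on the same methyl groups as Hsd17b7 and had ratios nearer 0. Cyp51, lanosterol demethylase, was at 53.7 against 57.7 FPKM (-0.10). Tm7sf2, a sterol reductase, was at 20.7 against 20.6 FPKM (0.01), and Sc5d, a desaturase, at 85.6 against 73.7 (0.21). Dhcr7, the reductase that yields cholesterol, was at 15.2 against 18.2 FPKM (-0.25).

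**Figure D1:**
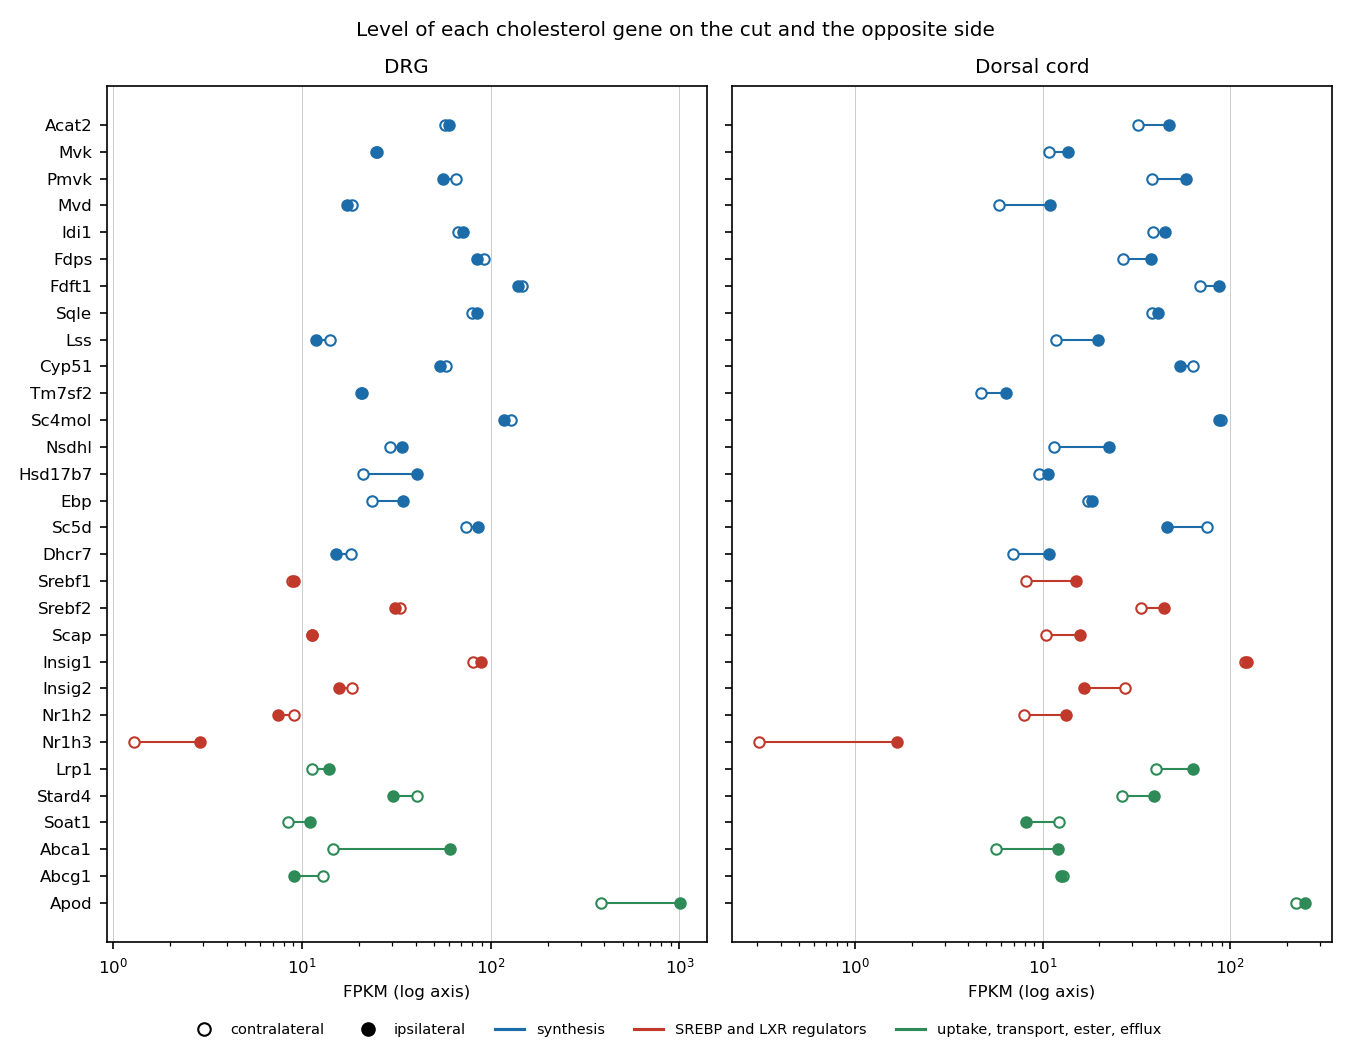
Level of each measured gene in FPKM on a log axis, in DRG (left) and dorsal cord (right). Open circles are contralateral and filled circles ipsilateral libraries, 1 library each, and a line joins the sides of a gene. In DRG the longest lines are those of Abca1 (14.7 to 60.8 FPKM), Apod (383 to 1001) and Nr1h3 (1.29 to 2.87), while most synthesis circles overlap. In cord most filled circles lie to the right of the open ones.

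The sterol sensors were even between the sides in DRG, and the 2 LXR receptor genes lay on opposite sides of an even level. Of the 7 regulators and receptors, 3 had a log2 ratio above 0 and 4 below (2 and 5 after median rescaling), with a median of 0.00. Srebf2, the SREBP gene tied most closely to cholesterol synthesis, stood at 31.2 FPKM ipsilaterally and 33.2 contralaterally (-0.09). Srebf1, whose products favour fatty acid genes, was at 9.04 against 8.87 FPKM (0.02), and Scap at 11.3 on both sides (0.00). Insig1, which is itself an SREBP target, was at 89.0 against 80.8 FPKM (0.14), and Insig2 at 15.8 against 18.3 (-0.20). Nr1h2, LXR beta, was at 7.45 against 9.02 FPKM (-0.25). Nr1h3, LXR alpha, was low on both sides, at 2.87 against 1.29 FPKM (0.76). The fold of Nr1h3 was 2.22 with interval bounds of 1.12 and 4.41 by the authors' deposited table, which does not call it (q = 0.180).

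The largest and the lowest ratios of the members in DRG both belonged to the uptake, transport, esterification and efflux genes. Abca1 and Apod were at the top, and the exporter gene Abcg1 and the carrier gene Stard4 at the bottom. Abca1, the pump that loads cellular cholesterol onto apolipoproteins, stood at 60.8 FPKM ipsilaterally and 14.7 contralaterally (log2 ratio 1.98). That is higher than the ratio of 99.4% of measured features. The fold was 4.15, with an interval of 2.90 to 5.94 and q = 3.02e-12 in the authors' deposited table. Abca1 lies on mm9 chromosome 4 from 53043660 to 53172767.

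Apod, a lipocalin that carries small lipids and is made by glia and fibroblasts of nerve, stood at 1001 FPKM ipsilaterally and 383 contralaterally (log2 ratio 1.38). Its contralateral level was already above that of 99.1% of measured DRG features. The fold was 2.61 with an interval of 1.78 to 3.83 and q = 7.77e-05 in the authors' deposited table. Apod lies on mm9 chromosome 16 from 31296277 to 31314682.

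The other transport genes in DRG had smaller ratios or ratios below 0. Abcg1, a second LXR target that exports sterol to lipoprotein particles, was lower at 9.08 against 12.9 FPKM (log2 ratio -0.46), and the authors' deposited table bounds its fold by 0.49 and 1.01. Stard4, which moves cholesterol between membranes inside the cell, was at 30.2 against 40.5 FPKM (-0.41). Its interval in the authors' deposited table was 0.52 to 1.06. Lrp1, a large receptor for lipoproteins and debris, was at 13.9 against 11.3 FPKM (0.27), and Soat1, which esterifies cholesterol for storage, at 10.98 against 8.43 (0.35). Of these 6 genes, 4 had a log2 ratio above 0, with a median of 0.31 and a range from -0.46 to 1.98.

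Over all 30 measured genes in DRG, 2 were at least 2-fold higher (Abca1 and Apod) and 0 at least 2-fold lower, where 3.04% of measured features were higher and 0.784% lower. The authors' deposited table calls 3 members higher (Hsd17b7, Abca1 and Apod) and 0 lower, against 4.64% and 1.9% of the features it tested. By intervals from the authors' deposited table, 4 of the 30 lay wholly above 1 and 0 below, where 10.1% and 6.35% of features did. Each of these counts lies within 2 genes of the number its background share gives for 30 genes.

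Markers of other cells moved beside the DRG values. Of 9 myeloid markers, 9 were higher ipsilaterally, 6 of them 2-fold, and their summed level was 143 FPKM against 56.0. Of 5 fibroblast markers, 5 were higher, 2 of them 2-fold, with a sum of 613 FPKM against 306. All 10 Schwann cell markers were above 0 with a median log2 ratio of 0.21 and a sum of 4952 FPKM against 4436, and all 6 sensory neuron markers were below 0 with a median of -0.57 and a sum of 1646 against 2156. Satellite glia markers were mixed, with 3 above 0 and 2 below. So were markers of neurons in general, with 2 above 0 and 4 below, and of astrocytes, with 3 above and 3 below. None of these markers was listed at 0 in a DRG library. Of the astrocyte markers, Slc1a2 (2.34 against 7.98 FPKM) and Aqp4 (2.04 against 5.10) were 2-fold lower, and Aldh1l1 (11.5 against 5.22) was 2-fold higher. Of 8 oligodendrocyte markers 5 were measured in DRG, 4 above 0 and 1 below. The unmeasured ones were higher contralaterally, with Mog at 0.03 against 0.71 FPKM, Mobp at 0.04 against 0.998 and Opalin at 0 against 0.89. The part of these cells in the ratios of Abca1, Nr1h3 and Apod was not tested.

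In ipsilateral dorsal cord most genes of the synthesis route stood above their contralateral level, by less than 2-fold. Of the 17 measured enzymes, 14 had a log2 ratio above 0, with a median of 0.33, against 51.6% above 0 and a median of 0.02 over all measured features. That count was 14 of 17 under both rescalings as well. Their summed level was 615 FPKM ipsilaterally and 550 contralaterally. The 3 below 0 were Sc5d, Cyp51 and Sc4mol, which were also the enzymes with the highest contralateral levels apart from Fdft1. The contralateral level is the divisor of the ratio, so this link is partly built in, and it was seen only after the values.

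The early enzymes all had log2 ratios above 0 in cord. Acat2 stood at 46.9 FPKM ipsilaterally and 32.1 contralaterally (log2 ratio 0.53), and Mvk at 13.6 against 10.8 (0.31). Pmvk was at 57.8 against 38.4 FPKM (0.58), and Idi1 at 44.6 against 38.6 (0.20). Mvd was at 10.95 against 5.86 FPKM (0.80), a fold of 1.87 with interval bounds of 1.08 and 3.24 by the authors' deposited table (q = 0.170). The intervals of Acat2 and Pmvk in the authors' deposited table, both from 1.02 up, also lay above 1. Those of Mvk (0.77 to 2.07) and Idi1 (0.82 to 1.63) in the authors' deposited table included 1, and none of the 5 was called there.

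The squalene and ring-closing enzymes had log2 ratios above 0 to different extents in cord. Fdps stood at 37.7 FPKM ipsilaterally and 26.8 contralaterally (log2 ratio 0.48), Fdft1 at 87.3 against 69.1 (0.33) and Sqle at 41.4 against 38.0 (0.12). Lss was at 19.7 against 11.8 FPKM (0.69), with a fold of 1.66 and interval bounds of 1.13 and 2.46 by the authors' deposited table (q = 0.101). The intervals of Fdps (0.92 to 2.14), Fdft1 (0.90 to 1.77) and Sqle (0.77 to 1.54) from the authors' deposited table included 1. Ctsb, which shares the listed locus of Fdft1, was at 151 against 169 FPKM (-0.16).

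The enzymes after lanosterol diverged most in cord, from Nsdhl at the top to Sc5d at the bottom. Nsdhl stood at 22.6 FPKM ipsilaterally and 11.5 contralaterally (log2 ratio 0.92), the largest ratio of the route. Its fold of 1.964 had an interval of 1.29 to 2.99, and q = 0.0344, in the authors' deposited table. Nsdhl lies on mm9 chromosome X from 70163859 to 70203867.

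Sc5d stood at 45.8 FPKM ipsilaterally and 75.6 contralaterally in cord (log2 ratio -0.71), lower than the ratio of all but 5.05% of measured features. The fold was 0.61 with interval bounds of 0.43 and 0.85 by the authors' deposited table, where q = 0.0607 narrowly missed the threshold of 0.05. Dhcr7 was at 10.8 against 6.96 FPKM (0.56) and Tm7sf2 at 6.39 against 4.71 (0.37). Their intervals in the authors' deposited table, 0.97 to 2.45 and 0.70 to 2.62, included 1. The feature 1110014N23Rik, which shares the listed locus of Tm7sf2, was at 10.3 against 6.74 FPKM (0.54). Hsd17b7 was at 10.7 against 9.59 FPKM (0.14) and Ebp at 18.3 against 17.4 (0.07). The abundant Cyp51 was at 54.1 against 63.1 FPKM (-0.22) and Sc4mol at 86.8 against 89.6 (-0.04).

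**Figure D2:**
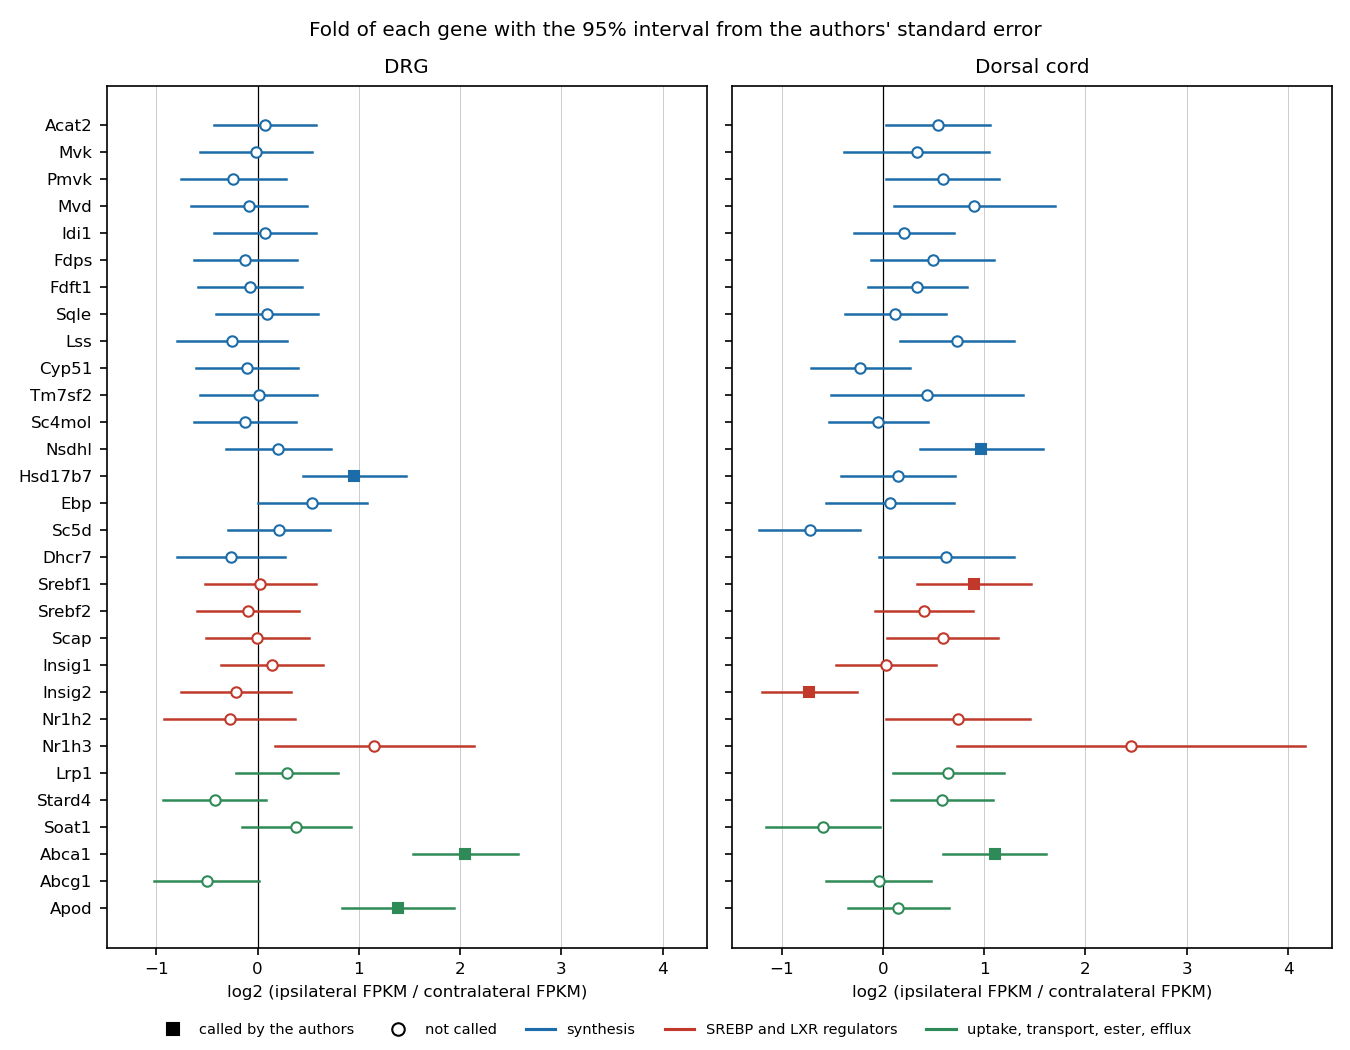
Log2 fold (ipsilateral over contralateral FPKM, no pseudocount) of each measured gene in DRG (left) and cord (right). Horizontal lines are 95% intervals built on the standard errors of the authors' deposited table, and filled squares mark genes called there. DRG has 3 squares, all right of 0, and cord has 4, with Insig2 left of 0. The widest interval, 1.66 to 17.9 as a fold, is that of Nr1h3 in cord.

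Among the regulators in cord, Srebf1 was called higher and Insig2 lower by the authors' deposited table. Of the 7 regulators and receptors, 6 had a log2 ratio above 0 under each setting that kept all 7, with a median of 0.55. Srebf1 stood at 15.1 FPKM ipsilaterally and 8.08 contralaterally (0.82), a fold of 1.86 with an interval of 1.26 to 2.75 and q = 0.0345 in the authors' deposited table. Its locus runs on mm9 chromosome 11 from 59918514 to 60034106. Rai1, the other feature there, was at 7.78 against 6.06 FPKM (0.31), and without a stated strand setting the reads of overlapping features cannot be told apart. Srebf2 was at 44.1 against 33.3 FPKM (0.39) and Scap, the escort of both, at 15.7 against 10.4 (0.55). Neither was called in the authors' deposited table (q = 0.348 and q = 0.195), and the interval of Srebf2, 0.946 to 1.85, included 1.

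The INSIG genes, whose products retain SCAP, were even or lower. Insig1 was the most abundant regulator and even between the sides of the cord, at 123 FPKM ipsilaterally and 120 contralaterally (log2 ratio 0.03). Insig2 was at 16.6 against 27.5 FPKM (-0.69). The fold of Insig2 was 0.60 with an interval of 0.44 to 0.84 and q = 0.0425 in the authors' deposited table, the only member called lower in either tissue. Insig2 lies on mm9 chromosome 1 from 123200929 to 123229157.

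Both LXR genes were higher in ipsilateral cord. Nr1h2 stood at 13.3 FPKM ipsilaterally and 7.96 contralaterally (log2 ratio 0.67), and the authors' deposited table bounds its fold by 1.02 and 2.73. Nr1h3 was at 1.68 against 0.31 FPKM (1.03), the largest ratio of the members in cord. It was the only one past 2-fold by the log2 ratio, which includes the pseudocount. At a pseudocount of 3 FPKM 0 members passed 2-fold. The fold of Nr1h3 without a pseudocount was 5.46, and its interval from the authors' deposited table runs from 1.66 to 17.9 (q = 0.0681).

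Among transport genes in cord, Abca1 again had the largest ratio. It stood at 12.1 FPKM ipsilaterally and 5.61 contralaterally (log2 ratio 0.98), a fold of 2.15 with an interval of 1.51 to 3.06 and q = 0.00168 in the authors' deposited table. Lrp1 was at 63.1 against 40.3 FPKM (0.63) and Stard4 at 39.4 against 26.3 (0.56). Their intervals in the authors' deposited table, from 1.07 to 2.28 and from 1.06 to 2.12, lay above 1 without a call. Soat1 was lower at 8.15 against 12.3 FPKM (-0.54), with interval bounds of 0.45 and 0.98 by the authors' deposited table. Abcg1 was at 12.5 against 12.9 FPKM (-0.04) and Apod at 250 against 225 (0.15). Of the 6 genes, 4 were above 0, with a median of 0.36.

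Over all 30 measured genes in cord, 24 had a log2 ratio above 0, with a median of 0.38. By the log2 ratio, only 1 was at least 2-fold higher (Nr1h3) and 0 at least 2-fold lower, where 4.46% and 1.64% of measured features were. The authors' deposited table calls 3 members higher (Nsdhl, Srebf1 and Abca1) and 1 lower (Insig2), against 4.52% and 1.55% of the features it tested. By intervals from the authors' deposited table, 12 of the 30 lay wholly above 1, where 12.4% of features did, and 3 wholly below (Sc5d, Insig2 and Soat1), where 7.99% did. The genes of one pathway in the same pair of libraries are not independent, so the share of intervals above 1, which exceeds its background, is a description.

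Markers of other cells in cord moved unevenly beside these ratios. All 9 myeloid markers were at least 2-fold higher ipsilaterally, with a summed level of 399 FPKM against 76.0 and none listed at 0. Of 8 markers of oligodendrocytes, the cells that form myelin in the cord, 4 were above 0 and 4 below, with a median log2 ratio of -0.06 and a sum of 6980 FPKM against 7957. Of 6 astrocyte markers 4 were above 0, with a median of 0.08 and a sum of 2014 FPKM against 1715. The higher sum rests on Gfap, at 881 FPKM against 469 (0.91). The 2 below 0 were Slc1a2, at 628 against 721 FPKM, and Gja1, at 261 against 300. Of 5 dorsal horn neuron markers, 2 were above 0 and 3 below, with a median of -0.35 and a sum of 188 FPKM against 269. The lowest of these was Gad1, which makes the transmitter GABA, at 45.8 FPKM against 91.8 (-0.99), and none was listed at 0 in cord. The part of these cells in the ratios of the synthesis genes, Abca1 and Nr1h3 was not tested.

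**Figure D3:**
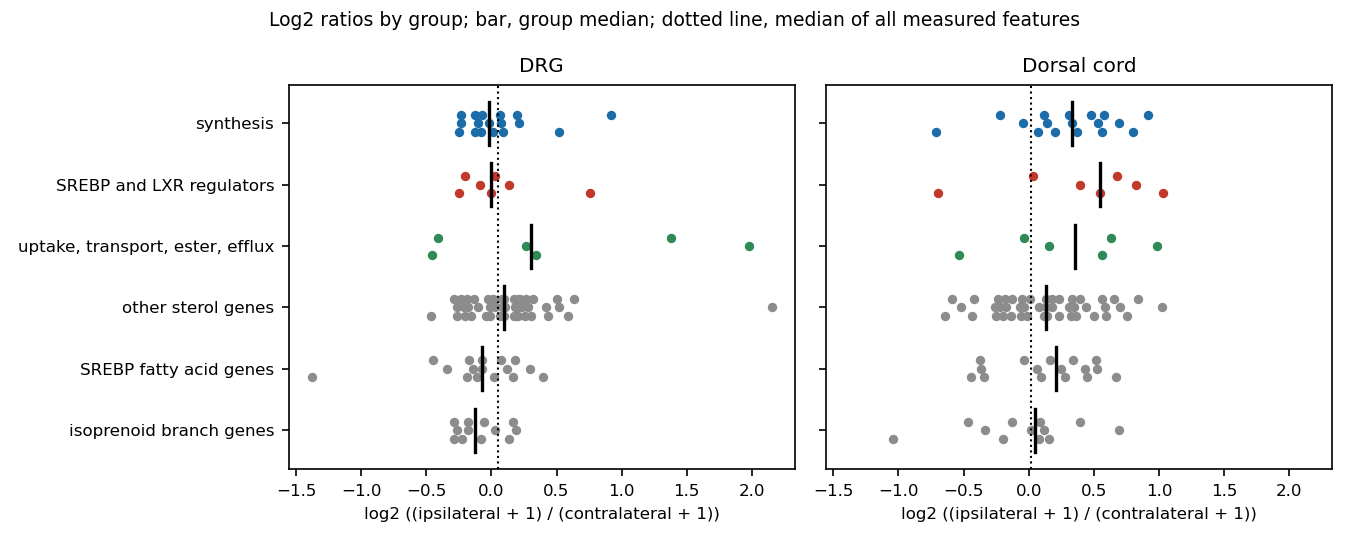
Log2 ratios of measured genes by group in DRG (left) and cord (right). Each dot is a gene, the bar is the group's median and the dotted line is the median of all measured features. In DRG the synthesis median of -0.01 sits beside the dotted line at 0.05, and in cord the medians of synthesis (0.33) and regulators (0.55) sit right of the dotted line at 0.02.

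The tissues were set side by side gene by gene, each as a ratio within its own table, since the tables were normalised separately. Of the 30 genes, 13 were above 0 in both tissues and 4 below 0 in both. Another 11 were below 0 in DRG and above 0 in cord, and 2, Sc5d and Soat1, the reverse. Opposite signs in the tissues were thus found for 13 of the 30, where 5853 of the 12074 features compared had them. The count of opposite signs is therefore not above the background. Abca1 was called higher in both by the authors' deposited table and was the only member called in both. Its fold was 1.93 times as large in DRG as in cord, with an interval of that quotient from 1.17 to 3.19 when the standard errors of the authors' deposited table are combined.

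Apod and Hsd17b7 differed between the sides mainly in DRG. The fold of Apod was 2.35 times as large in DRG as in cord (interval 1.399 to 3.94 from the authors' deposited table), and that of Hsd17b7 was 1.74 times as large (1.03 to 2.95). In the other direction, the fold of Srebf1 in DRG was 0.55 times that in cord (0.32 to 0.94 from the authors' deposited table), and that of Lss 0.50 times (0.29 to 0.87). The quotient of Nsdhl was 0.59 with interval bounds of 0.34 and 1.02 by the authors' deposited table, so its tissues cannot be separated by this measure. In all, 12 of the 30 quotients had an interval that left out 1, against 16.7% of the 12074 features measured in both tissues. Among genes with opposite signs in the tissues, a choice that favours large differences, the intervals of 8 of 13 members left out 1, against 27.6% of such features. No animal variation enters these intervals, and the difference between tissues was not tested over animals.

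**Figure D4:**
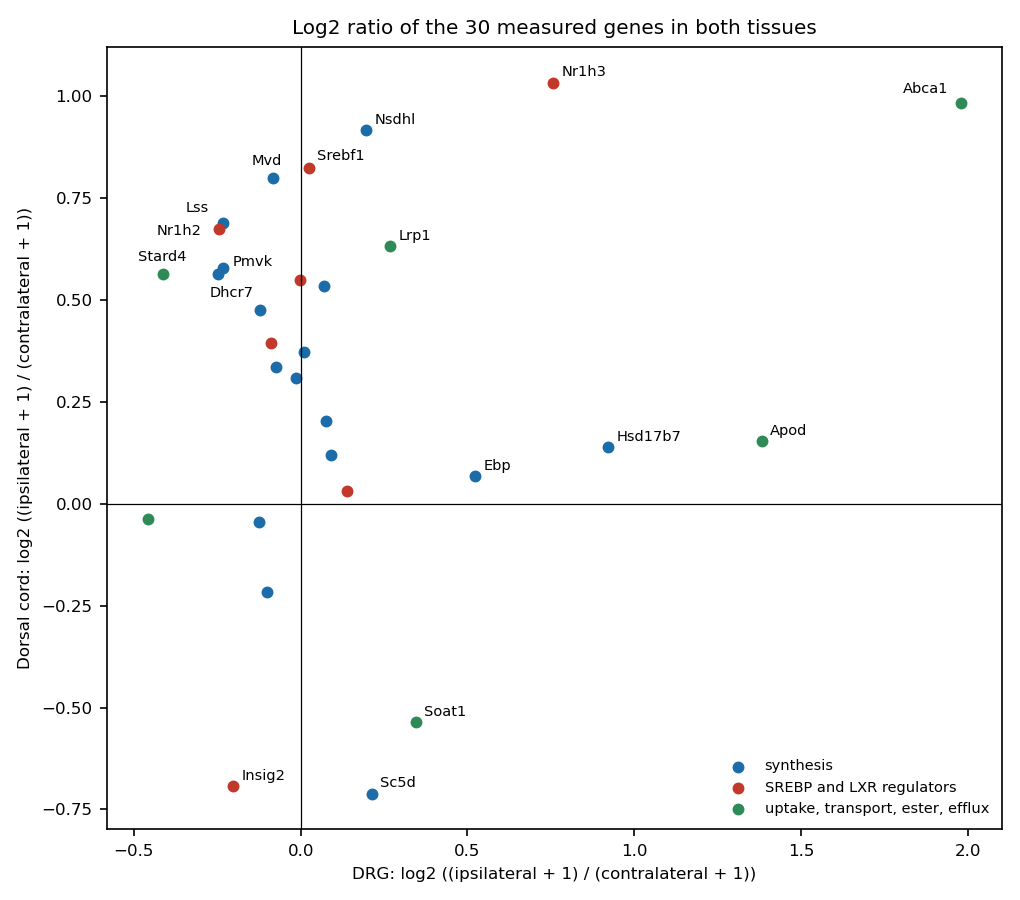
Log2 ratio of the 30 measured genes in DRG (horizontal axis) and in dorsal cord (vertical axis), coloured by role, with 1 library per side and tissue. Abca1 lies far right and high (1.98 and 0.98), Apod and Hsd17b7 far right near the horizontal line, and Nsdhl, Srebf1 and Mvd high near the vertical line. Sc5d and Soat1 lie at the lower right and Insig2 at the lower left.

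Absolute levels of the synthesis genes can be set across the tissues only approximately. The summed contralateral level of the 17 enzymes was 940 FPKM in DRG and 550 in cord. Fdft1 led the contralateral DRG enzymes at 147 FPKM, followed by Sc4mol at 129. In contralateral cord Sc4mol led at 89.6 FPKM, followed by Sc5d at 75.6. Lrp1 was instead higher in cord, at 40.3 against 11.3 FPKM on the contralateral side, and so was Insig1, at 120 against 80.8.

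Neighbouring lipid pathways were examined with lists of other genes. Of 45 measured other sterol genes (handling, turnover and control), 29 were above 0 in DRG, with a median log2 ratio of 0.10, and 26 in cord, with a median of 0.13. In DRG the largest was Star, which delivers cholesterol to mitochondria, at 11.8 FPKM ipsilaterally and 1.89 contralaterally (2.15), followed by Erlin1, an endoplasmic reticulum protein that restrains SREBP activation, at 8.22 against 4.94 (0.64). The SREBP protease gene Mbtps2 was at 9.74 against 6.16 FPKM (0.58) and Mylip, an LXR target that degrades lipoprotein receptors, at 8.82 against 5.85 (0.52). The authors' deposited table calls 2 of the 45 higher in DRG, Star and Erlin1, and 0 lower, against the 4.64% and 1.9% of tested features given above, so the count is at the background. In cord the authors' deposited table calls 3 of the 45 higher and 0 lower, against 4.52% and 1.55% of tested features, among them the lipid transporter gene Abca7 at 7.14 against 3.56 FPKM (0.84). Osbpl5, an oxysterol-binding protein relative, was at 7.70 against 4.34 FPKM in cord (0.70).

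Fatty acid genes that SREBP also controls were near even in DRG and mixed in cord. Of 16 measured genes, 7 were above 0 in DRG (median -0.07) and 11 in cord (median 0.21). Thrsp, a lipogenic gene, stood at 13.9 FPKM ipsilaterally and 37.8 contralaterally in DRG (-1.38), and it is the only one of the 16 called in either tissue by the authors' deposited table. Over all tested features, 4.64% were called higher and 1.9% lower in DRG, and 4.52% and 1.55% in cord. A single call among 16 genes is therefore near the background. The highest in cord were Fads2, a desaturase, at 85.1 against 53.2 FPKM (0.67) and Acaca, acetyl-CoA carboxylase, at 29.2 against 19.9 (0.53). Scd2, named after its values were seen as the most abundant of the 16, was at 838 against 1085 FPKM in cord (-0.37), so the summed level of the 16 was lower ipsilaterally, at 1692 against 1836 FPKM, while most single genes were higher.

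A further list covered the branch that uses mevalonate products for protein prenylation, dolichol and ubiquinone. Of 12 measured genes, 4 were above 0 in DRG (median -0.13) and 7 in cord (median 0.05). Pdss2, of ubiquinone synthesis, stood at 3.93 FPKM ipsilaterally and 9.15 contralaterally in cord (-1.04), and Fntb, a farnesyltransferase subunit, at 16.4 against 9.78 (0.69). The authors' deposited table calls 0 of the 12 in either tissue. Over all tested features, 4.64% were called higher and 1.9% lower in DRG, and 4.52% and 1.55% in cord, so 0 calls among 12 genes is near the background.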

How the data were processed

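Each tissue has 1 table of 21883 features with 2 libraries. Per the submitters' processing notes, TopHat 1.4.0, Cuffdiff 1.3.0 and build mm9 were used. The annotation, filters and strand setting are not given in the sources used here. Per the file headers, the authors deposited levels in FPKM, p-values and q-values, a test statistic (a score), and a call, all of 1 library against 1 library. Depth per library is unknown. All columns of sample values were used, with 0 set aside. Libraries were made with the ScriptSeq kit, per the labels' protocols.

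Log2 ratios with a pseudocount of 1 FPKM were computed with Python 3.11.15, numpy 2.4.6 and pandas 2.3.3, and the functions were checked on simulated data. The standard error is the absolute log2 fold over the deposited test statistic, and intervals are 95%. Differences between tissues combined the 2 standard errors as independent. No p-value was computed. Alternatives were a pseudocount of 0.1 or 3 FPKM, a filter at 5 FPKM or none, median and upper-quartile rescaling, the authors' status and call, and a centring added after seeing the data. All 31 members are named. Per other list and tissue, up to 4 genes with the largest ratios are named where the list is described; 2 of the other sterol genes that rank so in cord are counted but not reported here. The members and lists were chosen with earlier results of these data known.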

Additional observations from a re-analysis of the deposited data

Results flagged for a closer look

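Of the 13 genes with opposite signs in the tissues, 8 had a difference between log2 folds (DRG minus cord) whose 95% interval, from the combined standard errors of the authors' deposited tables, left out 0. Of the 5853 features with opposite signs that could be compared, 27.6% did, and the choice of opposite signs itself favours large differences. Each tissue has 1 library per side, so the difference was not tested over animals. Below 0 in DRG and above 0 in cord were the enzymes Mvd (difference -0.99), Lss (-0.99), Dhcr7 (-0.89) and Pmvk (-0.83), the receptor gene Nr1h2 (-1.02) and the transport gene Stard4 (-1.01). The reverse held for the desaturase gene Sc5d (0.94) and the esterifying enzyme gene Soat1 (0.97).

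The interval of Mvd was -1.97 to -0.01 and that of Dhcr7 -1.75 to -0.04, so both reach close to 0, while Stard4 (-1.72 to -0.30) and Sc5d (0.23 to 1.65) lie farther from it.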

How the results depend on the processing

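The medians of the 3 groups moved by no more than 0.1 on the log2 scale under every setting run. The count of members at least 2-fold higher in cord was 1 as reported. It was 2 at a pseudocount of 0.1 FPKM, 0 at a pseudocount of 3 FPKM and 0 with a filter at 5 FPKM, which removes Nr1h3. By the authors' call it was 3 higher and 1 lower. The same count in DRG was 2, and 3 at a pseudocount of 0.1 FPKM, where Nr1h3 joins with a log2 ratio of 1.10, or 3 by the authors' call. Of 478 single-gene values under other settings, 477 moved by less than the gene's standard error and 0 of the called genes changed sign. The other was Nr1h3 in cord, with a log2 ratio of 2.12 at a pseudocount of 0.1 FPKM. The filters and the authors' status leave a gene's ratio unchanged. The rescalings and the centring shift it by less than any member's standard error. For single genes, only the pseudocounts could therefore give a larger move. No paired analysis was possible because each group has 1 library, and leaving out a library leaves no ratio. Read depth is unknown, so the limit it sets on genes near 1 FPKM, such as Nr1h3, is known only through the authors' standard error, which reached 0.88 there against a median of 0.28 over the members in cord.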
